A study of Sus scrofa with 6 samples.

Results

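The genes described here are 10 components of the Notch pathway, the receptors NOTCH1, NOTCH2, NOTCH3 and NOTCH4, the ligands DLL4, JAG1 and JAG2, and the target genes HEY1, HEY2 and HES1. They were chosen by gene name, and all 10 are among the 13288 genes of the deposited table. RNA was sequenced from the ventricular tissue of male Tibetan minipigs, a small breed of pig. The 3 minipigs of the sham group underwent thoracotomy without constriction, and in the 3 minipigs of the DAC group (descending aortic constriction) the descending aorta was narrowed with sutures to load the left ventricle with pressure. The tissue was collected 12 weeks after surgery, each sample is 1 minipig, and the ages are not stated in the sources used here. The samples are named sham replicates 1 to 3 and DAC replicates 4 to 6, and the comparison asks whether Notch pathway transcripts differed between the pressure-overloaded and the sham myocardium.

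Notch receptors are transmembrane proteins that are activated by ligands on the neighbouring cell. The bound receptor is cleaved, first by an ADAM protease and then by the gamma-secretase complex, and its intracellular domain moves to the nucleus, where it joins the DNA-binding protein RBPJ and Mastermind coactivators to switch on the HES and HEY repressors. In the vessel wall, NOTCH1, NOTCH4, DLL4 and JAG2 are known from endothelial cells and NOTCH3 from smooth muscle cells and pericytes, and HEY2 is also a regulator of the ventricular cardiomyocyte.

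The values are FPKM, fragment numbers corrected for transcript length and for sequencing depth, so that levels can be set side by side between genes. The read numbers cannot be recovered from FPKM, and the depth behind a value is not known. Of the 13288 genes, 11029 reached 1 FPKM in 3 or more of the 6 samples and were compared between the groups with the moderated test of limma on log2(FPKM + 1). Fold changes are differences in the group means on this scale, DAC minus sham, which understates the change of low genes. A gene was called differentially expressed (DEG) at an unadjusted P under 0.05, with no minimum fold change. No gene of the table reached a Benjamini-Hochberg adjusted P under 0.05 (smallest 0.106 from limma), against 939 at an unadjusted P under 0.05. The background for every count that follows is therefore 8.51% of genes tested called in either direction, 3.25% called higher and 5.27% called lower in the DAC group.

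The labelled tissue was checked on cardiomyocyte markers, most of them shared by atrium and ventricle, of which 7 of 10 were in the table under these symbols and summed to between 13030 and 16090 FPKM per sample, with none at 0. Markers of endocardium (8.95 to 11.8 FPKM in sham, 8.05 to 18.9 FPKM in DAC) and of leukocytes (44.0 to 46.7 FPKM in sham, 35.7 to 48.8 FPKM in DAC) overlapped between the groups in their summed level, as did the red blood cell markers. The endocardial sum of 18.9 FPKM was that of DAC replicate 6. Red blood cell markers summed to 11.2, 38.5 and 11.4 FPKM in the sham samples and to 16.2, 5.86 and 38.2 FPKM in the DAC samples. Single DEGs on these lists were CD163 (lower, groups apart) among the leukocyte, CDH11 (higher) among the endocardial and RYR2 (lower) among the cardiomyocyte markers. DAC replicate 5 stood apart from the other libraries. The 13 mitochondrially encoded genes held 32.8% of its summed FPKM, against 24.0% to 25.3% in the sham libraries and 27.1% to 27.2% in the remaining DAC libraries. DAC replicate 5 was the lowest of the 3 DAC samples in 9 of the 10 Notch genes and the lowest of all 6 samples in 6 of them. DAC replicate 6 was the highest of the 3 DAC samples in all 10 Notch genes. The share of all genes with either order was not counted. Within DAC, replicate 5 was also lowest and replicate 6 highest in the summed endothelial, arterial endothelial, endocardial and red blood cell markers. This was not so for the sums of smooth muscle and pericyte, fibroblast, cardiomyocyte and leukocyte markers.

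All 10 Notch genes passed the filter. NOTCH2 was an upregulated DEG and NOTCH4 was a downregulated DEG, and the other 8 genes did not pass the test. Of the 10 genes, 6 had a lower mean after DAC and 4 a higher one, where 46.6% of all genes tested had a higher mean. Their median log2 fold change was -0.12, beside -0.016 over all genes tested. The direction of this median turned when DAC replicate 5 (0.091) or sham replicate 2 (0.014) was left out. With any other sample left out it stayed below 0, from -0.30 for DAC replicate 6 to -0.027 for sham replicate 3. Genes with a lower mean numbered 4 when DAC replicate 5 was left out and 8 for DAC replicate 6. The adjusted P of the 10 genes was between 0.522 and 0.957 from limma. Only NOTCH2 had no overlap between the groups, with its DAC samples on the higher side. Over all genes tested, 14.9% had no overlap, 6.01% with DAC higher and 8.91% with DAC lower. A gene without overlap has an exact permutation P of 0.10 (two-sided), and 3 minipigs against 3 can give none smaller.

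**Figure D1:**
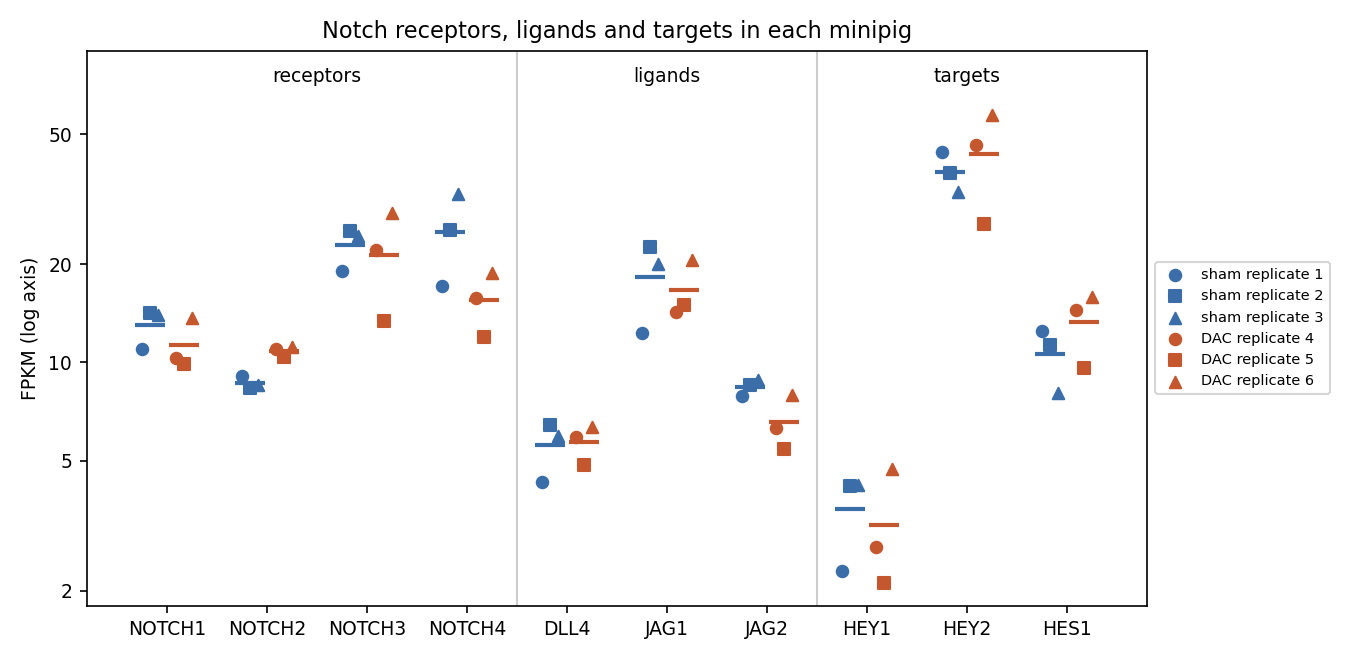
FPKM (log axis) of the 10 Notch genes in each minipig, with sham samples in blue, DAC samples in orange and a horizontal line at each group mean. NOTCH2 is the gene in which the 3 DAC samples (10.4 to 11.2 FPKM) lie above the 3 sham samples (8.38 to 9.10 FPKM), and DAC replicate 5 is the lowest DAC sample in 9 of the 10 genes.

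Averaged over the 6 samples, HEY2 had the highest level of the 10 genes, at 40.9 FPKM. It was followed by NOTCH3 at 22.2, NOTCH4 at 20.3, JAG1 at 17.5, NOTCH1 at 12.2, HES1 at 11.97, NOTCH2 at 9.76, JAG2 at 7.49, DLL4 at 5.64 and HEY1 at 3.38 FPKM. The order differed between the groups. NOTCH4 was above NOTCH3 in the sham means (25.1 and 22.9 FPKM) and below JAG1 in the DAC means (15.5 and 16.6 FPKM), and NOTCH1 was above HES1 in sham (13.1 and 10.6 FPKM) and below it in DAC (11.3 and 13.3 FPKM). Neighbours in this order were compared within samples by an exact sign-flip permutation test of the log2 ratio over the 6 samples, two-sided, with Benjamini-Hochberg adjustment over the 9 pairs. The order held in 6 of 6 samples for 4 pairs, HEY2 over NOTCH3, JAG1 over NOTCH1, JAG2 over DLL4 and DLL4 over HEY1. Each of these 4 had an exact P of 0.031, the smallest that 6 samples can give, and an adjusted P of 0.0703, so that 0 of the 9 pairs passed an adjusted P of 0.05. With 4 pairs at that smallest P none could pass, and the pairs and their order came from the same 6 samples. The test therefore cannot decide whether the levels differ. In the other 5 pairs the order was mixed, with NOTCH3 over NOTCH4 in 4 of 6 samples and NOTCH1 over HES1 in 3 of 6.

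Among the receptors, NOTCH2 (ENSSSCG00000006709, chromosome 4 from 100951507 to 101150198, plus strand, on the pig build susScr11) is found in many tissues. It was measured at 9.10, 8.38 and 8.55 FPKM in sham replicates 1 to 3 and at 11.0, 10.4 and 11.2 FPKM in DAC replicates 4 to 6. Every DAC sample was above every sham sample, and the spread within each group was the smallest of the 10 genes. The sham mean was 8.68 ± 0.376 FPKM and the DAC mean 10.9 ± 0.416 FPKM (SD, n = 3 each). NOTCH2 thus rose by a log2 fold change of 0.29 (standard error 0.096, P = 0.0179 and adjusted P = 0.522 from limma, exact permutation P = 0.10). Leaving out any 1 sample gave 0.27 to 0.32, and the call was lost when sham replicate 2, sham replicate 3 or DAC replicate 6 was the sample left out (unadjusted P of 0.0563, 0.0535 and 0.0511 in limma).

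The fibroblast marker list moved in the same direction as NOTCH2. All 8 of its genes were in the table and above 0 in each sample, and their summed level was between 482 and 555 FPKM in the sham samples and between 688 and 780 FPKM in the DAC samples. LUM, COL1A1, COL1A2, COL3A1 and POSTN, which encode matrix proteins, were upregulated DEGs, 5 of the 8. The other 3, PDGFRA, DCN and TCF21, did not pass the test, with log2 fold changes of 0.24, -0.012 and -0.022. The part of fibroblasts in the NOTCH2 difference was not tested. In whole tissue, fewer or more cells of a type cannot be told apart from less or more RNA per cell.

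NOTCH4 (ENSSSCG00000001440, chromosome 7 from 24231293 to 24256281, minus strand) is the receptor known mainly from endothelial cells. It was at 17.1, 25.5 and 32.8 FPKM in the sham samples and at 15.8, 11.95 and 18.8 FPKM in the DAC samples. The groups overlapped in 1 pair of samples, since DAC replicate 6 was above sham replicate 1. The sham mean was 25.1 ± 7.86 FPKM and the DAC mean 15.5 ± 3.43 FPKM (SD, n = 3 each), 61.7% of the sham mean. With a log2 fold change of -0.64, NOTCH4 had the largest difference of the 10 genes (standard error 0.25, P = 0.0393 and adjusted P = 0.584 from limma, exact permutation P = 0.20).

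The size of the NOTCH4 difference depended on single libraries. Its log2 fold change was -0.88 without sham replicate 1, the lowest sham sample, and -0.43 without sham replicate 3, the highest. The call was lost on leaving out sham replicate 2 (unadjusted P of 0.0921 in limma), sham replicate 3 (0.125), DAC replicate 4 (0.0767) or DAC replicate 5 (0.123). It was also lost when no variance was shared between genes (0.115) and with sample weights (0.0559). The mean stayed lower in the DAC group in each of these fits.

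Of the 12 endothelial markers, 9 had a lower and 3 a higher DAC mean. Their median log2 fold change was -0.30, beside -0.016 over all genes tested. All 12 genes of the list were in the table and none was at 0 in any sample. Their summed level was 221, 302 and 313 FPKM in the sham samples and 207, 187 and 269 FPKM in the DAC samples, so the groups overlapped and sham replicate 1 was again the lowest sham sample. FLT1, VWF, CLDN5 and ROBO4 were downregulated DEGs, while KDR, the main receptor for vascular endothelial growth factor, and EMCN, a mucin of capillaries and veins, were upregulated DEGs. The other 6 did not pass the test. The log2 fold change was -0.40 for EGFL7, -0.35 for ESAM, -0.26 for PECAM1, -0.22 for CDH5, -0.14 for TIE1 and 0.19 for TEK. CLDN5, a tight junction protein of the endothelium, was at 8.30, 12.3 and 18.8 FPKM in the sham samples and at 4.14, 3.78 and 6.88 FPKM in the DAC samples. The 5 arterial endothelial markers, none of them a DEG, summed to 33.2, 49.7 and 42.4 FPKM in the sham samples. In the DAC samples the sum was 48.0, 29.9 and 51.1 FPKM. The part of endothelial cells in the NOTCH4 difference was not tested.

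NOTCH4 was also expressed as a percentage of the summed endothelial markers of the same library, a ratio that was chosen after seeing the data. This was 7.75%, 8.43% and 10.5% in the sham samples and 7.62%, 6.41% and 6.997% in the DAC samples, so the highest DAC sample lay just below the lowest sham sample. When the mean log2 level of the endothelial markers was subtracted from every gene, also chosen after seeing the data, the median of all genes tested moved to 0.24. On that scale NOTCH4 had a log2 fold change of -0.38 (adjusted P = 0.715 from limma, with an unadjusted P of 0.178) and was no longer a DEG. The standard error on that scale was 0.28 for each of the Notch genes, so this P reflects little of the spread of NOTCH4 itself.

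NOTCH1 (ENSSSCG00000038509, plus strand, from 1209485 to 1252826 of an unplaced scaffold) is the receptor of arterial endothelium and of the developing endocardium and valves. It was at 11.0, 14.1 and 14.0 FPKM in the sham samples and at 10.3, 9.92 and 13.7 FPKM in the DAC samples. The groups overlapped, with sham replicate 1 below DAC replicate 6. Between the groups the log2 fold change was -0.20 with a 95% interval from -0.57 to 0.17 (P = 0.247 in limma, exact permutation P = 0.20). It moved to -0.33 when DAC replicate 6 was left out, to -0.31 for sham replicate 1 and to -0.12 for DAC replicate 5. The table places SSNA1 on the opposite strand over all 43342 bases of NOTCH1, at 21.7 to 26.1 FPKM, and how reads of the shared stretch were assigned is not given in the sources used here, so the level of NOTCH1 is uncertain.

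NOTCH3 (ENSSSCG00000025176, chromosome 2 from 62364501 to 62402344, plus strand) maintains vascular smooth muscle cells and pericytes. It was at 19.1, 25.3 and 24.4 FPKM in the sham samples and at 22.1, 13.4 and 28.6 FPKM in the DAC samples. DAC replicates 5 and 6 were the lowest and the highest of all 6 samples, and the SD was 3.37 FPKM in the sham group and 7.65 FPKM in the DAC group (n = 3 each). The fold change on the log2 scale was -0.15 with a 95% interval from -0.76 to 0.47. The value became 0.14 without DAC replicate 5 and -0.38 without DAC replicate 6. The other 9 smooth muscle and pericyte markers summed to between 180.0 and 209 FPKM in the sham samples. In the DAC samples the sum was between 207 and 226 FPKM. DAC replicate 5, at 207 FPKM, was not set apart in that sum, but its single markers differed in direction. This sample was the lowest of all 6 in RGS5 (44.8 FPKM), CSPG4 (2.64 FPKM) and ABCC9 (28.6 FPKM), as in NOTCH3. It was the highest in ACTA2 (36.5 FPKM), CNN1 (9.33 FPKM) and KCNJ8 (15.7 FPKM). In MYH11, TAGLN and PDGFRB it was neither. CNN1 was an upregulated DEG, and the other markers of this list did not pass the test.

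**Figure D2:**
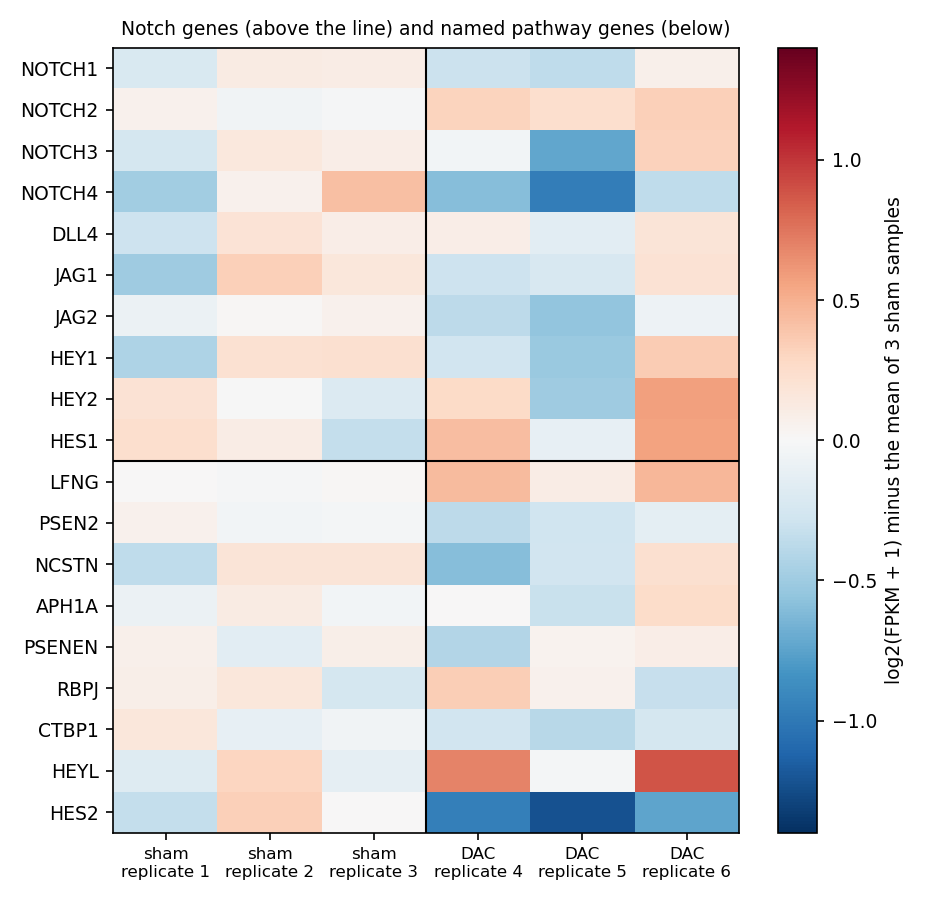
Each row is a gene and each column a minipig, and the colour gives log2(FPKM + 1) minus the mean of the 3 sham samples, with the 10 Notch genes above the line and the named pathway genes below. The column of DAC replicate 5 is blue for 9 of the 10 Notch genes, all but NOTCH2, and that of DAC replicate 6 is red for all of them but NOTCH4 and JAG2. NOTCH4, JAG2, PSEN2, CTBP1 and HES2 are below the sham mean in all 3 DAC columns.

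None of the 3 ligands was a DEG. JAG2 (ENSSSCG00000002555, minus strand, from 3262244 to 3284867 of an unplaced scaffold), a Jagged ligand of endothelial cells, came nearest. It was at 7.90, 8.54 and 8.84 FPKM in the sham samples and at 6.29, 5.44 and 7.96 FPKM in the DAC samples. DAC replicates 4 and 5 were below all sham samples, and DAC replicate 6 was just above sham replicate 1. JAG2 had a log2 fold change of -0.33 with a 95% interval from -0.66 to 0.0029 (P = 0.0515 and adjusted P = 0.592 from limma, exact permutation P = 0.20). JAG2 was a DEG after median scaling (unadjusted P of 0.0472 in limma), after quantile normalization (0.0482) and without DAC replicate 6 (0.00948), where its log2 fold change was -0.46. As a percentage of the summed endothelial markers, JAG2 was between 2.83% and 3.58% in the sham samples and between 2.92% and 3.04% in the DAC samples.

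DLL4 (ENSSSCG00000004755, chromosome 1 from 130376720 to 130386713, minus strand), the Delta ligand that restrains the sprouting of vessels, was at 4.31, 6.44 and 5.95 FPKM in the sham samples and at 5.92, 4.87 and 6.35 FPKM in the DAC samples. The DAC values lay within the range of the sham values. Its log2 fold change was 0.040 with a 95% interval from -0.34 to 0.42, and DLL4 was the 1 gene of the 10 whose interval stayed within 0.5 of 0 on both sides. Set against the summed endothelial markers, DLL4 was at 1.95%, 2.13% and 1.90% in the sham samples and at 2.86%, 2.61% and 2.37% in the DAC samples, where the groups did not overlap. Nor did they overlap for NOTCH2, which was higher in DAC, or for NOTCH4, which was lower. The share of all genes that separate on this ratio was not counted. With the mean log2 level of the endothelial markers subtracted, DLL4 was at 0.30, where the median of all genes tested was 0.24.

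JAG1 (ENSSSCG00000007067, chromosome 17 from 19591252 to 19630085, minus strand), the Jagged ligand that signals from endothelium to smooth muscle, was at 12.3, 22.6 and 19.98 FPKM in the sham samples and at 14.3, 15.0 and 20.6 FPKM in the DAC samples. Again the DAC values lay within the sham range, and sham replicate 1 was the lowest of all. JAG1 had a log2 fold change of -0.10 with a 95% interval from -0.67 to 0.46, and it was -0.35 without sham replicate 1. Sham replicate 1 was the lowest sham sample in 7 of the 10 Notch genes, and the share over all genes was not counted.

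**Figure D3:**
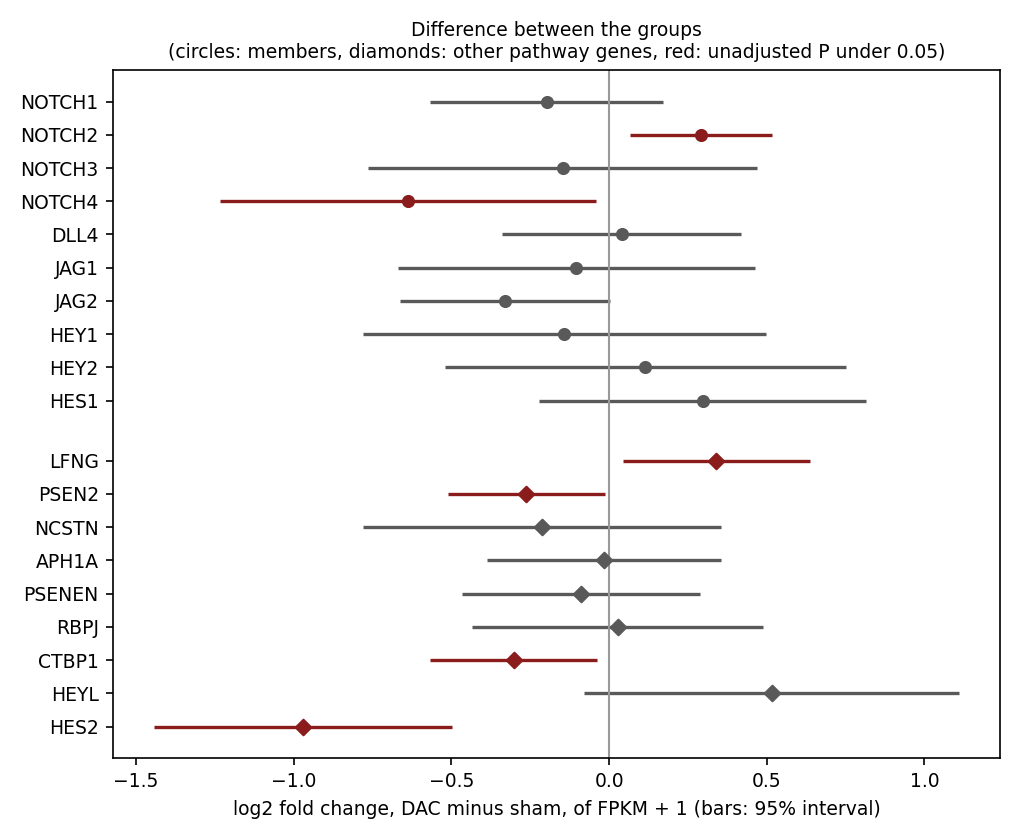
Log2 fold change (DAC minus sham, of FPKM + 1) with its 95% interval from limma for the 10 Notch genes (circles) and the named pathway genes (diamonds), in red where the unadjusted P was under 0.05. NOTCH2 and LFNG lie above 0, NOTCH4, PSEN2, CTBP1 and HES2 lie below 0, and the intervals of the other genes include 0.

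None of the 3 target genes was a DEG on the FPKM as deposited with all 6 samples. HES1 (ENSSSCG00000031356, chromosome 13 from 131135724 to 131138236, plus strand), a basic helix-loop-helix repressor that many signals induce besides Notch, was at 12.5, 11.3 and 8.07 FPKM in the sham samples and at 14.5, 9.61 and 15.9 FPKM in the DAC samples. DAC replicates 4 and 6 were above all sham samples and DAC replicate 5 was within them. HES1 had a log2 fold change of 0.30 with a 95% interval from -0.22 to 0.82 (P = 0.220 in limma, exact permutation P = 0.30). Without DAC replicate 5 it was 0.50 (adjusted P = 0.565 from limma, with an unadjusted P of 0.0377), an upregulated DEG. It shrank to 0.16 without DAC replicate 6 and to 0.13 without sham replicate 3. Relative to the endothelial markers, HES1 was at 0.56 (adjusted P = 0.654 from limma, with an unadjusted P of 0.0484) and was called. The median of all genes tested was 0.24 on that scale. The standard error there was nearly the same for all Notch genes, so this P reflects little of the spread of HES1 itself.

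HEY2 (ENSSSCG00000004223, chromosome 1 from 37219883 to 37231385, minus strand), a repressor that holds the ventricular identity of cardiomyocytes and acts in arteries, was at 44.0, 37.9 and 33.2 FPKM in the sham samples and at 46.2, 26.6 and 57.3 FPKM in the DAC samples. As for HES1, DAC replicates 4 and 6 were above all sham samples, and DAC replicate 5 was the lowest of all 6. HEY2 had a log2 fold change of 0.11 with a 95% interval from -0.52 to 0.75. This was 0.42 without DAC replicate 5 (adjusted P = 0.565 from limma, with an unadjusted P of 0.0410) and -0.12 without DAC replicate 6.

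HEY1 (ENSSSCG00000006159, chromosome 4 from 56859663 to 56863789, plus strand), the related repressor of endothelium and endocardium, had the lowest level of the 10 genes. It was at 2.31, 4.17 and 4.21 FPKM in the sham samples and at 2.72, 2.11 and 4.73 FPKM in the DAC samples. The coefficient of variation was 30.6% in the sham group and 43.0% in the DAC group, the largest of the 10 genes within DAC. Its log2 fold change was -0.14 with a 95% interval from -0.78 to 0.50. Leaving out DAC replicate 5 gave 0.048, and leaving out DAC replicate 6 gave -0.39.

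**Figure D4:**
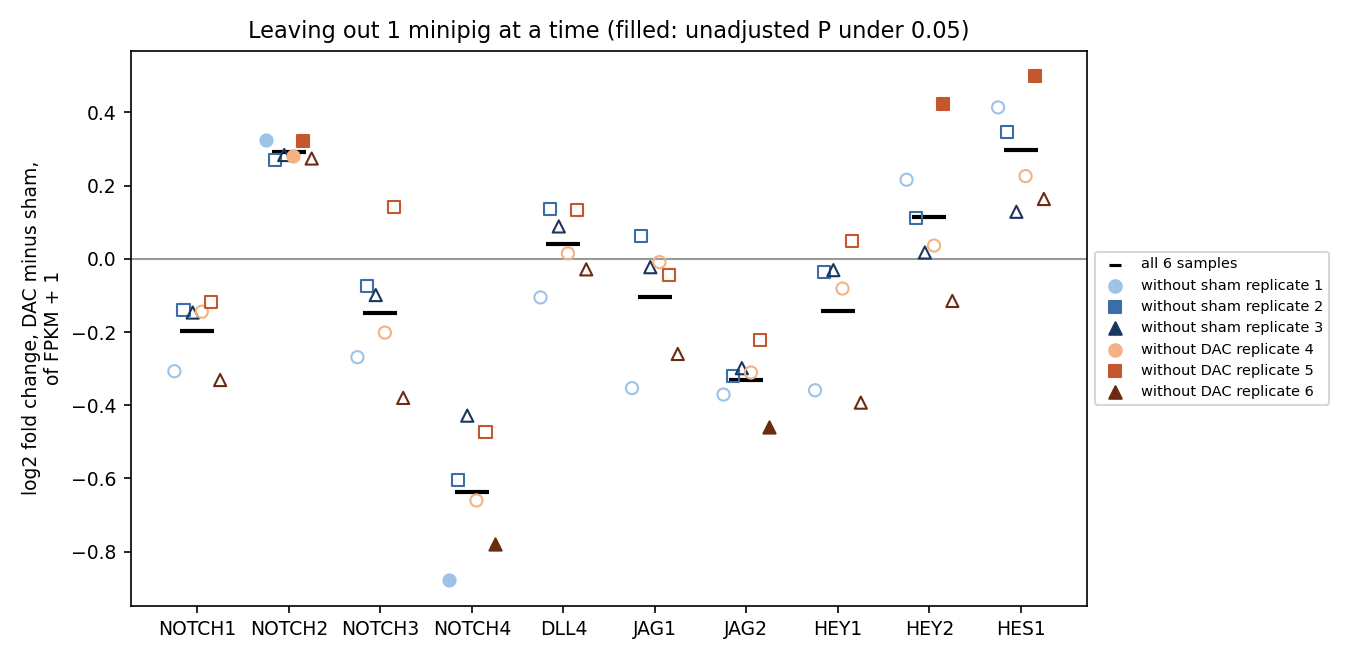
Log2 fold change (DAC minus sham, of FPKM + 1) of the 10 Notch genes with all 6 samples (black line) and with each minipig left out, filled where the unadjusted P was under 0.05. NOTCH2 stays between 0.27 and 0.32 and NOTCH4 stays below 0, while HEY2 runs from -0.12 to 0.42.

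The other genes of the pathway were taken from a list of 60, of which 54 were in the table and 53 were tested. Of these, LFNG was an upregulated DEG, 1 of 53 beside a background of 3.25%, and PSEN2, CTBP1 and HES2 were downregulated DEGs, 3 of 53 beside 5.27%. Both shares were near the background. Among the 53 genes, 30 had a higher and 23 a lower DAC mean, and their median log2 fold change was 0.021.

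LFNG, the Fringe glycosyltransferase that extends sugars on the Notch receptors and shifts their response between Delta and Jagged ligands, was at 5.08, 5.01 and 5.12 FPKM in the sham samples and at 7.25, 5.54 and 7.40 FPKM in the DAC samples. The sham values were nearly the same in the 3 minipigs, and every DAC sample was above them. LFNG rose by a log2 fold change of 0.34 (P = 0.0300 and adjusted P = 0.558 from limma, exact permutation P = 0.10). P was above 0.05, up to 0.0936 in limma, without each sample in turn except DAC replicate 5. The other Fringe genes did not pass the test, with a log2 fold change of -0.18 for MFNG and of -0.39 for RFNG.

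In receptor cleavage, 9 genes were tested. PSEN2, a catalytic subunit of gamma-secretase, was at 6.005, 5.55 and 5.61 FPKM in the sham samples and at 4.21, 4.54 and 5.09 FPKM in the DAC samples. Every DAC sample was below the sham samples, and the log2 fold change was -0.26 (P = 0.0425 and adjusted P = 0.584 from limma, exact permutation P = 0.10). The PSEN2 call was lost with each sample left out except DAC replicate 6, with a minimum of 5 FPKM, after median scaling, with sample weights and with mitochondrially encoded genes left out, and the log2 fold change was -0.0032 relative to the endothelial markers. The subunits NCSTN, APH1A and PSENEN had log2 fold changes of -0.21, -0.016 and -0.089, none past the test. Leaving out DAC replicate 6 moved NCSTN to -0.43, and leaving out DAC replicate 4 moved it to -0.021. That of APH1A was above 0 after median scaling (0.0074) and after quantile normalization (0.036). The sheddase ADAM10, which makes the first cut, was at 5.64 FPKM in the sham group and 5.65 FPKM in the DAC group.

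In the nucleus, RBPJ, the DNA-binding protein of the pathway, was at 6.41, 6.87 and 4.94 FPKM in the sham samples and at 7.95, 6.30 and 4.6 FPKM in the DAC samples. The groups overlapped and the log2 fold change was 0.027, with a 95% interval from -0.43 to 0.49. None of the 8 tested genes of the nuclear complex was a DEG. Of the 12 corepressor genes, CTBP1 was a downregulated DEG, with a mean of 14.6 FPKM in the sham group and 11.6 FPKM in the DAC group and a log2 fold change of -0.30 (P = 0.0308 and adjusted P = 0.561 from limma, exact permutation P = 0.10). The CTBP1 call was lost without sham replicate 1, sham replicate 3 or DAC replicate 5, after quantile normalization, with mitochondrially encoded genes left out and relative to the endothelial markers.

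Of the other HES and HEY genes and targets, HES2, a repressor of the HES family, was at 5.40, 9.15 and 7.13 FPKM in the sham samples and at 3.17, 2.46 and 3.86 FPKM in the DAC samples. Every DAC sample was below every sham sample, and the DAC mean was 43.7% of the sham mean. Its log2 fold change of -0.97 (standard error 0.20, P = 0.00177 and adjusted P = 0.383 from limma, exact permutation P = 0.10) was the largest in size of the tested Notch pathway genes. HES2 was a downregulated DEG in all 15 alternative fits, with a log2 fold change between -1.16 and -0.71.

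HEYL, a target known from vascular smooth muscle, was at 3.90, 5.87 and 4.10 FPKM in the sham samples and at 7.98, 4.47 and 9.21 FPKM in the DAC samples. As for HES1 and HEY2, DAC replicates 4 and 6 were above all sham samples. DAC replicate 5 was within the sham range of HEYL, as it was for HES1, whereas for HEY2 it lay below that range. HEYL had a log2 fold change of 0.52 with a 95% interval from -0.078 to 1.11 (adjusted P = 0.609 from limma), and of 0.79 without DAC replicate 5 (adjusted P = 0.420). Without DAC replicate 6 it was 0.34, with an unadjusted P of 0.236. HEYL gained a call without DAC replicate 5 (unadjusted P of 0.00450 against 0.0793 with all samples), without sham replicate 2 (0.0477), with sample weights (0.0391) and relative to the endothelial markers (0.00610). In the last of these fits the median of all genes tested was 0.24. Its standard error hardly differed between HEYL and the Notch genes, so that P reflects little of the spread of HEYL itself.

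**Figure D5:**
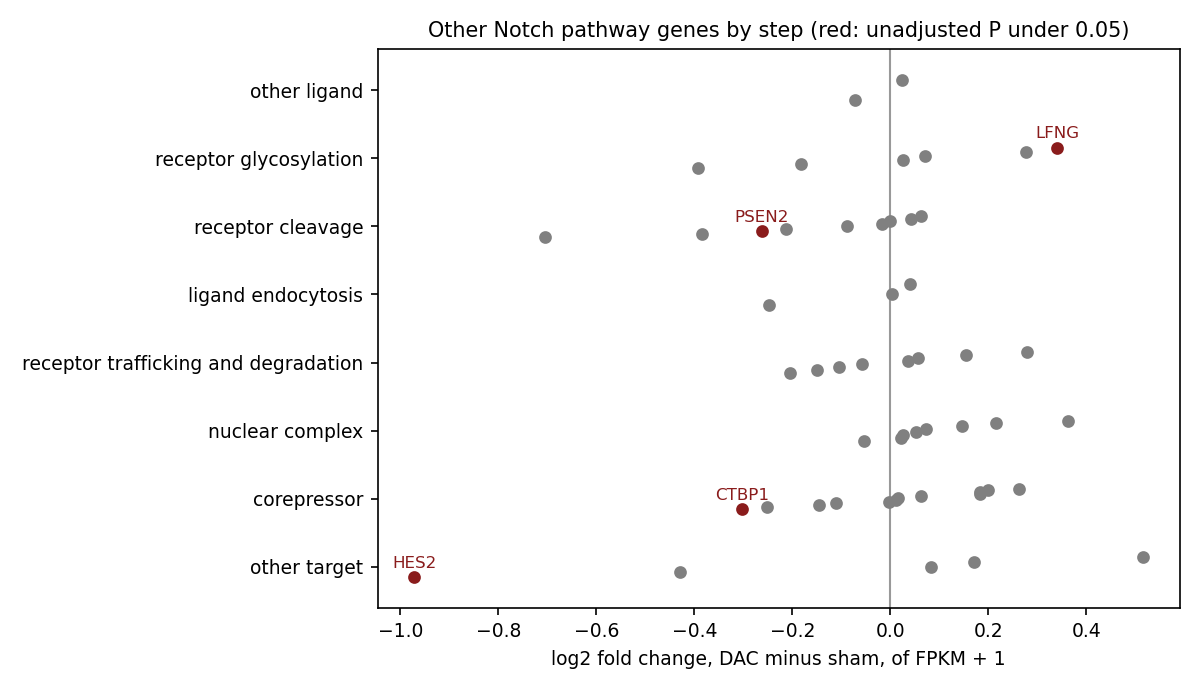
Log2 fold change (DAC minus sham, of FPKM + 1) of the 53 tested pathway genes other than the 10 Notch genes, grouped by step, with a point for each gene and a red point where the unadjusted P was under 0.05. The called genes are LFNG above 0 and PSEN2, CTBP1 and HES2 below 0, in 4 different steps.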

How the data were processed

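The authors deposited 1 table of FPKM with a column for each of 3 sham and 3 DAC minipigs, and no column was left out. Per the labels, a NEBNext Ultra kit served for the libraries. The submitters' processing notes name HISAT2 and the build susScr11. The counting program and its use of strand are not given in the sources used here. Every listed gene reaches 0.500 FPKM in its highest sample. No steps of whole reads were seen, so no count test was run. Gene names are those of the table, and 520 unnamed genes took one from a table of gene identifiers, among them 3 of the pathway list. The analysis used R 4.3.3, limma 3.58.1, Python 3.11.15, scipy 1.17.1 and matplotlib 3.10.9, and was tested on simulated data. limma was fitted with a variance trend on log2 of FPKM plus 1. Nothing names a sequencing batch. The 10 Notch genes, the pathway list and the marker lists were chosen with earlier results of these data known. All 10 Notch genes are named, with every called gene of the pathway list and RBPJ, HEYL, NCSTN, APH1A and PSENEN. The values of 1 further gene that the rule names are not reported here. MFNG, RFNG, ADAM10 and the single markers were named after their values were seen. As alternatives, the fit was repeated with no filter, a minimum of 5 FPKM, a pseudocount of 0.1, median scaling, quantile normalization, the variance of each gene on its own, sample weights and each sample left out. Added after seeing the data were a rescaling without mitochondrially encoded genes and levels relative to endothelial markers.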

Additional observations from a re-analysis of the deposited data

How the results depend on the processing

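At the threshold of unadjusted P under 0.05 in limma, 2 of the 10 Notch genes were called with all 6 samples, and 1 with each gene's variance taken alone, with sample weights, and relative to the endothelial markers. That gene was NOTCH2 in the first 2 of these settings and HES1 in the last, where NOTCH2 lost its call (unadjusted P of 0.0502). In that last fit the standard error was 0.28 for every Notch gene, so its calls reflect little of the spread of single genes. With 1 sample left out, between 0 and 3 Notch genes and between 1 and 8 of the other pathway genes were called, against 4 with all samples. No Notch gene had an adjusted P under 0.05 in any of the 15 alternatives, and over these the adjusted P was between 0.434 and 0.884 for NOTCH2 and between 0.506 and 0.843 for NOTCH4. Among 149 fits of single Notch genes, 122 kept direction and side of the threshold, 11 lost the call, 6 gained one and 10 changed direction. HEY1 was not tested at a minimum of 5 FPKM. With 1 sample left out, the log2 fold change ranged from -0.38 to 0.14 for NOTCH3, from -0.11 to 0.14 for DLL4, from -0.35 to 0.063 for JAG1, from -0.39 to 0.048 for HEY1, from -0.12 to 0.42 for HEY2, from -0.15 to 0.13 for APH1A, from -0.14 to 0.20 for RBPJ and from -0.18 to 0.073 for PSENEN. That of APH1A was 0.0074 after median scaling, 0.036 after quantile normalization, 0.033 with sample weights and 0.026 with mitochondrially encoded genes left out. Relative to the endothelial markers, the log2 fold change was above 0 for NOTCH1 (0.061), NOTCH3 (0.11), JAG1 (0.15), HEY1 (0.12), NCSTN (0.046), APH1A (0.24) and PSENEN (0.17), where the median of all genes was 0.24. The cause of these shifts was not tested. Over all genes, 939 were called, against 579 of 6271 tested at a minimum of 5 FPKM and 600 without sham replicate 1. Of the calls, 61.9% were lower in the DAC group, 71.5% with the higher minimum, 44.9% with mitochondrially encoded genes left out, 50.8% without DAC replicate 5 and 9.98% relative to the endothelial markers. No paired analysis was possible because the sham and DAC groups were different minipigs, assigned at random.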

Other observations

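Ratios between Notch genes within a library do not depend on how the libraries were scaled. Of 9 ratios, chosen after the values were seen, NOTCH2 to NOTCH4 was 0.53, 0.33 and 0.26 in the sham samples and 0.70, 0.87 and 0.59 in the DAC samples, with every DAC sample higher. JAG2 to DLL4 was 1.83, 1.33 and 1.49 in the sham samples and 1.06, 1.12 and 1.25 in the DAC samples, with every DAC sample lower. NOTCH4 to NOTCH3 was between 0.897 and 1.34 in the sham samples and between 0.656 and 0.892 in the DAC samples. NOTCH4 to NOTCH1 was between 1.55 and 2.34 in the sham samples and between 1.20 and 1.53 in the DAC samples. No test is given, because the pairs were picked with the values known and NOTCH2 and NOTCH4 are the genes called in opposite directions. HEY2 to HES1 was between 3.36 and 4.11 in the sham samples and between 2.77 and 3.60 in the DAC samples, where the groups overlapped. They also overlapped in the remaining ratios, JAG1 to DLL4, JAG1 to JAG2, NOTCH2 to NOTCH1 and HEY2 to HEY1. The share of all gene pairs whose ratio separates the groups was not counted.

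The genes most like NOTCH2 and NOTCH4 over the 6 samples were found by the root mean square difference of their levels, each centred on its mean and scaled to its own SD. For NOTCH2 they were DOCK11 at 0.123 SD, CFAP97D1 at 0.141 SD and COL1A2, a chain of type I collagen, at 0.165 SD. The sham and DAC means were 1.38 and 2.04 FPKM for DOCK11, 2.79 and 4.84 FPKM for CFAP97D1 and 73.3 and 110 FPKM for COL1A2. For NOTCH4 they were CASP10 at 0.0872 SD, CHKA at 0.0935 SD and PCMT1 at 0.0945 SD. With 6 samples and 11029 genes, such likeness is a description alone.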
